A study of Mus musculus with 6 samples.

Results

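The genes of cholesterol and sterol synthesis, with the genes that control this pathway and move its products, are described here in the mouse incisor after loss of *Arid1b*, which encodes a subunit of the BAF chromatin remodeling complex. The 31 members were taken from a named list of enzymes, SREBP regulators, sterol carriers and fatty acid synthesis genes, and all 31 were among the 19270 genes with values. RNA of the proximal incisor was sequenced from 3 control and 3 mutant mice, 4 days after tamoxifen induction at the age of 1 month, and the methods state that mesenchyme was dissected. The mutants carried *Gli1-CreER;Arid1b* fl/fl, with which tamoxifen activates Cre in the GLI1+ lineage, which contributes to both mesenchyme and epithelium of the incisor. The controls received the same tamoxifen injections, and the methods give them as *Arid1b* fl/fl mice while the sample labels give wild type. The sex of the mice was not in the labels, and sex-linked transcripts, given below, show that the groups differed in their makeup by sex.

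Cells make cholesterol from acetyl-CoA through mevalonate, isoprenoids, squalene and a long series of sterol intermediates. When sterols in the endoplasmic reticulum run low, the escort protein SCAP carries the SREBP transcription factors to the Golgi, where proteases release their active part, and when sterols are plentiful the INSIG proteins hold this complex back. SREBP-2 acts mainly on cholesterol genes and SREBP-1 mainly on fatty acid genes, while LXR receptors respond to oxysterols and switch on exporters.

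Each value is the authors' mean of a group, a normalized signal scaled so that the upper quartile of every library is the same, and the log2 ratio is that of the mutant mean to the control mean. The authors' own test between the groups was not used, and with a mean per group and no value per mouse the differences given here have no replicate check. A member was counted as lower or higher when the means were at least 1.5-fold apart. The signal is not divided by transcript length, so levels were compared between groups and not between genes. An estimated 39087724 to 39868312 reads per control library and 37123643 to 49594469 per mutant library lay on the genes. The member with the fewest estimated reads had about 215 per library, and the widest 95% counting interval of a member's log2 ratio reached 0.15 to either side, which covers counting error only. The targeted gene *Arid1b*, on chromosome 17 of GRCm38 from 4994332 to 5347656, had a mean of 97.6 in control and 38.0 in mutant incisors, a log2 ratio of -1.36.

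Of the 18 sterol synthesis enzymes among the members, 17 had a lower mean in the mutant incisors, 12 of them by at least 1.5-fold. Of the 31 members, 14 were at least 1.5-fold lower, against 5.80% of all 19270 genes, and 0 were at least 1.5-fold higher, against 7.37%. A higher mean in the mutants was found for 4 of 31 members, against 50.5% of all genes. The median log2 ratio was -0.53 over the members and 0.00 over all genes. Ratios spread more widely at low levels, so the same counts were made among the 10311 genes that reached a mean of 10 over both groups. There, 14 of 30 members were at least 1.5-fold lower, against 0.912% of genes, and 0 of 30 were at least 1.5-fold higher, against 2.15%. The members made up 14 of the 94 genes that were lower by this fold at this level. With the log2 ratios centred on dental mesenchyme markers, a choice made after seeing the data, 7 of 31 members were at least 1.5-fold lower, against 3.63% of all genes. Then 1 was at least 1.5-fold higher, against 11.7%. The summed signal of dental epithelium markers, described below, was 1544 in control and 10191 in mutant incisors. Most of it came from the enamel genes *Amelx*, *Ambn* and *Enam*, and the other epithelial markers differed less. In bulk tissue, fewer cells of a type and less RNA per cell cannot be told apart.

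**Figure D1:**
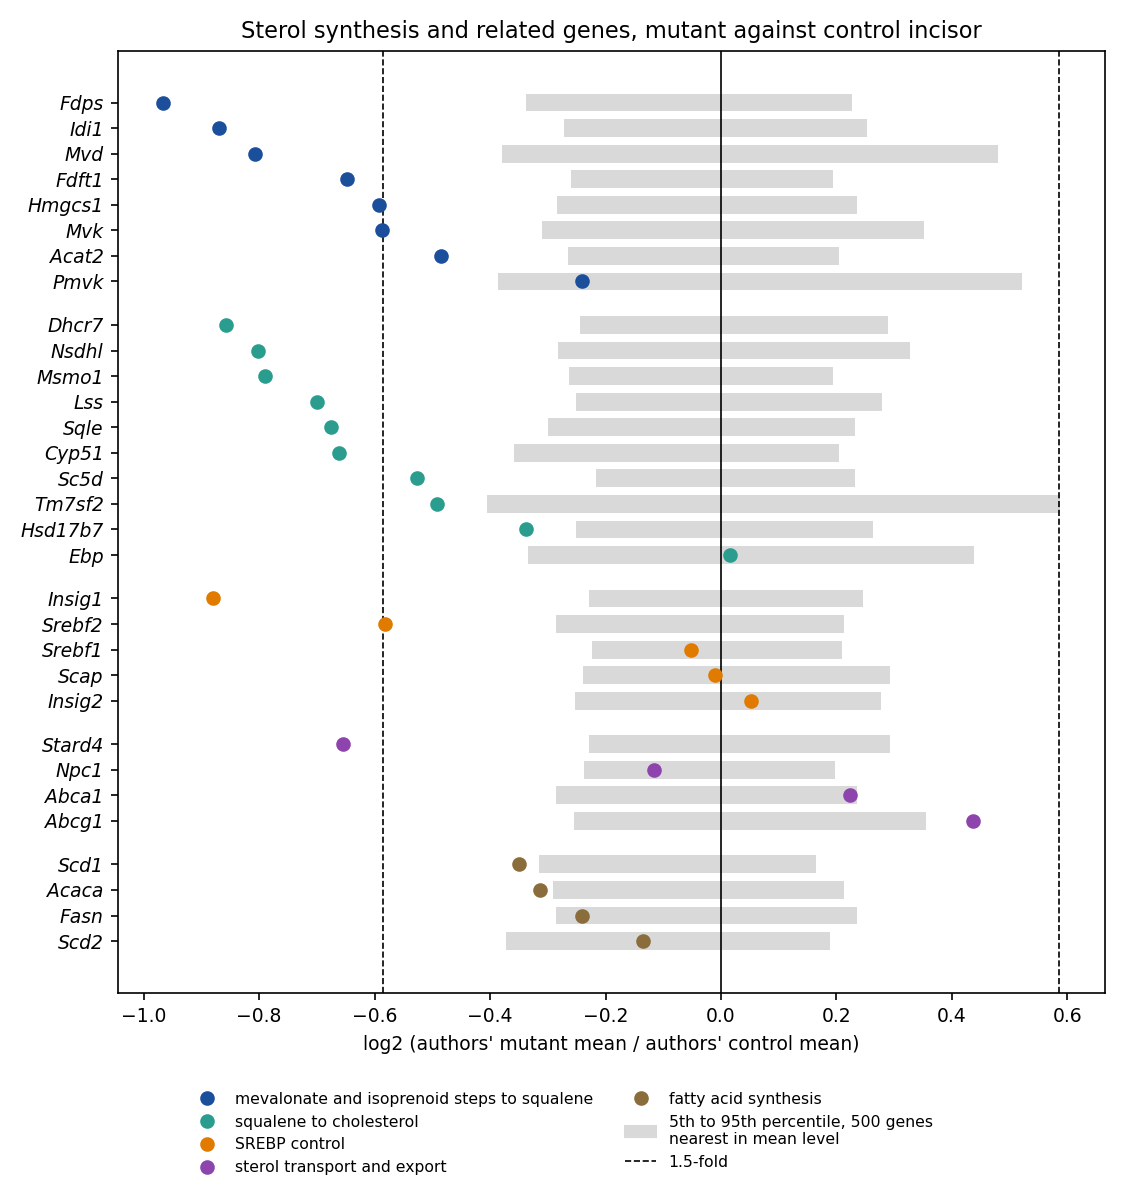
Log2 ratio of the authors' mutant mean to control mean for each of the 31 members, grouped by role; grey bars span the central 90% of the 500 genes nearest in mean level and dashed lines mark 1.5-fold. Of the 18 sterol synthesis enzymes, 16 lie below their grey bar, while *Pmvk* and *Ebp* lie within it.

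The mevalonate and isoprenoid steps lead from acetyl-CoA to squalene. All 8 of their enzymes among the members had a lower mean in the mutants, 6 of them by at least 1.5-fold. Their median log2 ratio was -0.62. HMG-CoA reductase was not among the members. With the log2 ratios centred on dental mesenchyme markers, a choice made after seeing the data, *Mvd*, *Idi1* and *Fdps* stayed at least 1.5-fold lower. *Hmgcs1*, *Mvk* and *Fdft1* did not. The first step belongs to *Acat2*, the cytosolic acetoacetyl-CoA thiolase, which had a log2 ratio of -0.49. *Hmgcs1*, the HMG-CoA synthase on chromosome 13 from 119690379 to 119708260, had a mean of 217 in control and 144 in mutant incisors, a log2 ratio of -0.59. Mevalonate kinase, *Mvk*, had means of 20.4 and 13.6 in controls and mutants, also a log2 ratio of -0.59. The kinase after it, phosphomevalonate kinase *Pmvk*, was the least different of the 8, with a log2 ratio of -0.24, and 124 of the 500 genes nearest to it in mean level were at least as far from 0. The decarboxylase *Mvd* had a mean of 14.2 in control and 8.10 in mutant incisors, a log2 ratio of -0.81.

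The isoprenoid enzymes that follow showed some of the lowest ratios among the members. *Idi1*, the isopentenyl diphosphate isomerase, had means of 97.0 in control and 53.1 in mutant incisors, a log2 ratio of -0.87. *Fdps*, which builds farnesyl diphosphate, the branch point toward sterols, ubiquinone, dolichol and prenylated proteins, had means of 63.1 and 32.3. Its log2 ratio of -0.97 was the lowest of the 31 members, and 3 of the 500 genes nearest in level were at least as far from 0. *Fdft1*, squalene synthase, commits farnesyl diphosphate to sterols and had means of 63.8 and 40.7, a log2 ratio of -0.65. The enzymes of the other branches were closer to 0, with log2 ratios of -0.07 for *Ggps1*, which makes geranylgeranyl diphosphate, -0.11 for *Dhdds* of dolichol synthesis and 0.09 for *Pdss1* of ubiquinone synthesis. These 3 genes were picked out after their values were seen.

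From squalene to cholesterol, 9 of 10 enzymes had a lower mean in the mutants, 6 of them by at least 1.5-fold, and the median log2 ratio was -0.67. With the log2 ratios centred on dental mesenchyme markers, a choice made after seeing the data, *Msmo1*, *Nsdhl* and *Dhcr7* stayed at least 1.5-fold lower. *Sqle*, *Lss* and *Cyp51* did not. *Sqle*, the squalene epoxidase and a rate-limiting step, had means of 115.8 in control and 72.5 in mutant incisors, a log2 ratio of -0.68. *Lss*, which closes the rings to form lanosterol, had means of 50.7 and 31.2, a log2 ratio of -0.70. *Cyp51*, the lanosterol demethylase, had means of 122.6 and 77.5, a log2 ratio of -0.66. Thus the steps that form and first trim the sterol nucleus lay close together.

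Demethylation at carbon 4 runs through *Msmo1*, *Nsdhl* and *Hsd17b7*. *Msmo1* had means of 66.3 in control and 38.3 in mutant incisors, a log2 ratio of -0.79. *Nsdhl*, on the X chromosome, had means of 30.2 and 17.3, a log2 ratio of -0.80. *Hsd17b7* was nearer to 0, with a log2 ratio of -0.34. The reductase *Tm7sf2*, whose step the lamin B receptor can also carry out, was the member with the fewest estimated reads and had a log2 ratio of -0.49.

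At the end of the pathway the neighbouring steps differed from each other. *Ebp*, the X-linked sterol isomerase, had means of 20.1 in control and 20.3 in mutant incisors. Its log2 ratio of 0.02 made it the only enzyme of the 18 without a lower mean in the mutants, and 453 of the 500 genes nearest in level were at least as far from 0. The desaturase *Sc5d*, which acts after it, had a log2 ratio of -0.53, short of 1.5-fold. *Dhcr7*, the reductase that converts 7-dehydrocholesterol to cholesterol, had means of 51.5 and 28.4, a log2 ratio of -0.86. Over the 18 enzymes together the summed signal was 1128 in control and 720.5 in mutant incisors, and the median log2 ratio was -0.65.

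**Figure D2:**
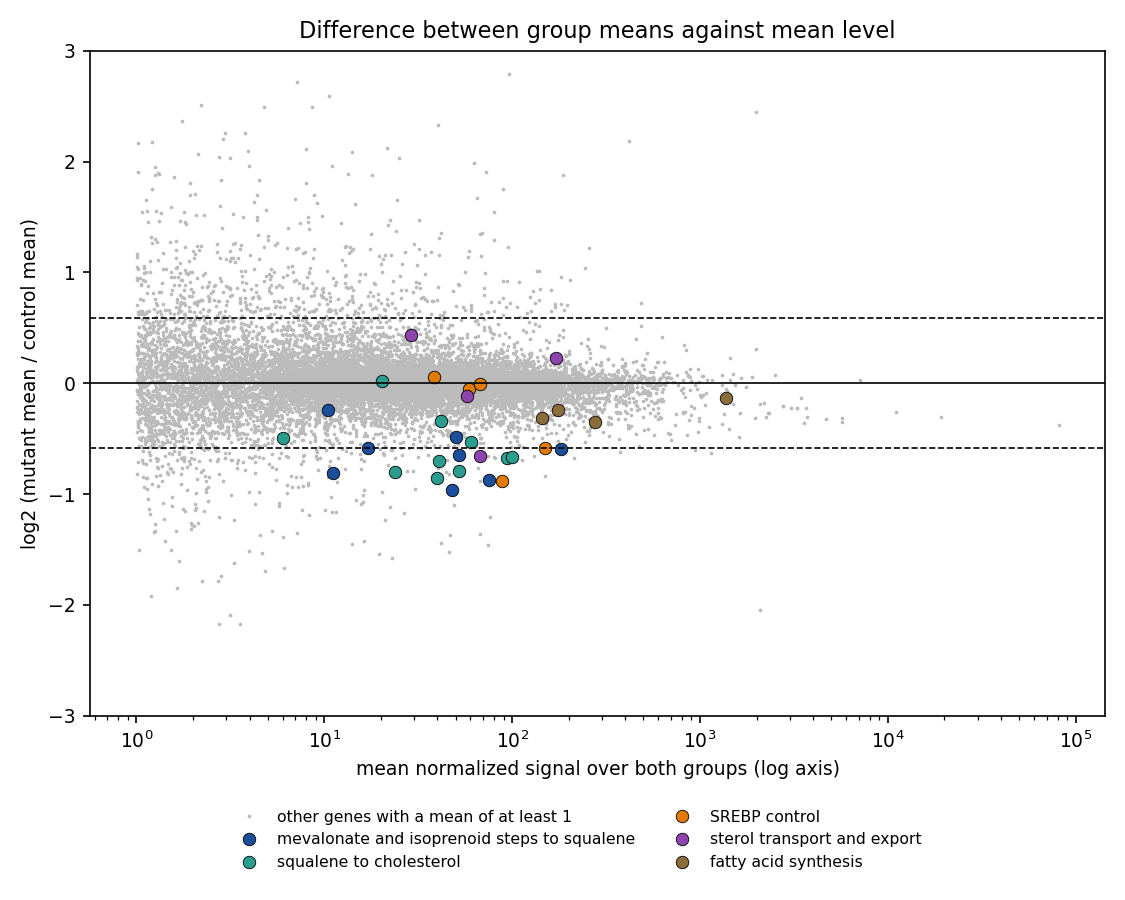
Log2 ratio of the mutant mean to the control mean against the mean signal over both groups on a log axis, for genes with a mean of at least 1, with the members coloured by role and points beyond a log2 ratio of 3 in either direction not drawn. The 14 members below the lower dashed line of 1.5-fold are among the 94 genes that lie there at a mean of at least 10.

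The regulators of the pathway were divided. *Insig1*, a sterol sensor partner whose own gene is a classical SREBP target, had means of 114.9 in control and 62.5 in mutant incisors, a log2 ratio of -0.88, and 5 of the 500 genes nearest in level were at least as far from 0. Its paralog *Insig2*, which is not driven by SREBP in the same way, had means of 37.8 and 39.2, a log2 ratio of 0.05. The transcription factor gene *Srebf2*, also known to be activated by its own product, had means of 180.2 and 120.3, a log2 ratio of -0.58 that lay just outside the threshold, with *Mvk* just inside it. *Srebf1*, which encodes the factor of fatty acid genes, had a log2 ratio of -0.05, and *Scap*, the escort protein, -0.01. The proteases that cleave SREBP, *Mbtps1* and *Mbtps2*, had log2 ratios of 0.01 and 0.14, and were named after their values were seen.

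Transport and export genes went in both directions. *Stard4*, a cytosolic sterol carrier and SREBP-2 target, had means of 82.1 in control and 52.1 in mutant incisors, a log2 ratio of -0.66. *Npc1*, which releases cholesterol from lysosomes, had a log2 ratio of -0.12. The exporters *Abca1* and *Abcg1*, known LXR targets, were the members with the highest ratios. *Abca1* had means of 157.7 and 184.2, a log2 ratio of 0.22, and *Abcg1* had means of 24.7 and 33.4, a log2 ratio of 0.44. Neither reached 1.5-fold, though *Abcg1* did, at 0.64, with the log2 ratios centred on dental mesenchyme markers, a choice made after seeing the data. As they stand, 25 of the 500 genes nearest to *Abcg1* in level were at least as far from 0.

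The fatty acid synthesis genes had lower means in the mutants at 4 of 4 members, with a median closer to 0 than that of the sterol enzymes. The log2 ratio was -0.24 for *Fasn*, the fatty acid synthase, and -0.31 for *Acaca*, which supplies its malonyl-CoA. The desaturases *Scd1* and *Scd2* had log2 ratios of -0.35 and -0.14. None of the 4 reached 1.5-fold, and their median was -0.28. Among 19 further fatty acid synthesis genes the median log2 ratio was -0.23, 15 had a lower mean in the mutants and 0 were at least 1.5-fold apart. Over all 19270 genes, 9539 had a lower mean, 5.80% were at least 1.5-fold lower and 7.37% at least 1.5-fold higher. The lowest of the 19 was *Acss2*, an acetyl-CoA synthetase, at -0.57, and the highest was *Hacd3* at 0.10.

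Other genes of sterol handling stayed closer to the background. Of 30 further sterol pathway genes with values, for proteolysis, esterification, lysosomal release, uptake and oxysterol formation, 19 had a lower mean in the mutants and the median log2 ratio was -0.03. Of these 30, 1 was at least 1.5-fold lower and 0 were at least 1.5-fold higher. Over all 19270 genes, 9539 had a lower mean, 5.80% were at least 1.5-fold lower and 7.37% at least 1.5-fold higher. The lower gene of the list was the lipoprotein receptor gene *Lrp8*. It had means of 10.6 in control and 5.68 in mutant incisors, below the level of 10 over both groups. The highest of the 30 was *Nceh1*, a cholesteryl ester hydrolase, at a log2 ratio of 0.33. Of 6 LXR receptors and targets, *Arl4c* alone was at least 1.5-fold apart, with means of 36.5 in control and 67.6 in mutant incisors, a log2 ratio of 0.89, and the median was -0.06. The log2 ratios of the receptors themselves were -0.03 for *Nr1h2* and -0.38 for *Nr1h3*, both named after their values were seen.

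Markers of other cell types were read from the same means. Dental epithelium markers had a higher mean in the mutants at 9 of 10 genes, 8 of them by at least 1.5-fold. Their summed signal was 1544 in control and 10191 in mutant incisors. Most of this sum came from the enamel genes *Amelx*, *Ambn* and *Enam*, the last with means of 135.8 and 1983. The mutant mean over the control mean was 2.32 for *Krt5*, 2.02 for *Krt14*, 2.35 for *Krt17*, 1.81 for *Cdh1* and 1.72 for *Epcam*. It was 1.48 for *Odam* and 0.809 for *Klk4*, both at low levels. *Amelx*, which encodes an enamel protein and had the largest mean over both groups, had means of 361.9 and 3946, and *Ambn*, the largest in the controls, had means of 617.4 and 3360. Dental mesenchyme markers had a lower mean at 5 of 7 genes, with a summed signal of 31422 in control and 25447 in mutant incisors and a median log2 ratio of -0.20. *Col1a1* had the largest signal of them in each group, with means of 21211 and 17127. Markers of incisor mesenchyme were thus abundant in both groups, and markers of enamel epithelium were present beside them although mesenchyme was the tissue dissected. The part that tissue makeup may play in the lower sterol genes was not tested, and shares of cells were not measured. With the log2 ratios centred on the mesenchyme markers, a choice made after seeing the data, 7 of 31 members were at least 1.5-fold lower, against 3.63% of all genes under the same centring. At a mean of 10 or more these were 7 of 30 members, against 0.446% of genes. They were *Mvd*, *Idi1*, *Fdps*, *Msmo1*, *Nsdhl*, *Dhcr7* and *Insig1*. The enzymes' median was then -0.45.

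Other cells showed smaller shifts. Macrophage markers had a higher mean in the mutants at 5 of 6 genes, with sums of 416.6 in control and 438.9 in mutant incisors. *Lyz2*, with the largest signal of them in each group, had means of 125.8 and 131.7. Endothelial markers had a higher mean at 3 of 5, with sums of 313.0 and 315.6 and with *Cdh5* at 95.2 and 94.4. Perivascular markers had a higher mean at 2 of 4, with sums of 564.6 and 512.1 and with *Rgs5* at 411.0 and 340.1. Schwann cell markers had a higher mean at 2 of 5, with sums of 40.8 and 43.7 and with *Mbp* at 11.3 and 15.2. No gene of these lists was at least 1.5-fold apart, and the lists moved little in sum compared with the enamel genes.

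Fat and muscle, tissues rich in lipid enzymes or often carried along in dissection, were scarcely present. Of 7 adipocyte markers, only *Fabp4* was among the genes with values, with means of 4.27 in control and 3.96 in mutant incisors. The 5 skeletal muscle markers summed to 5.98 and 5.43, and *Acta1*, with the largest mean over both groups, had means of 2.50 and 1.12. *Myh4*, the largest of them in the mutants, went the other way, with means of 0.552 and 2.06. For proliferation, 4 of 4 markers had mutant means above their control means, but 0 reached 1.5-fold. Their sums were 395.5 in control and 477.7 in mutant incisors, with *Mki67* at 176.5 and 209.3.

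Transcripts of the sex chromosomes also differed between the groups. The 4 Y-linked genes summed to 0.130 in control and 147.7 in mutant incisors, and each was at or under the level of 3 reads per library, 0.103, in the controls. *Ddx3y* had a mean of 0.0259 in the controls, the lowest value of the group, and 65.3 in the mutants. *Xist* had means of 3368 and 813.8. Estimated reads per library of the Y-linked genes were 0 to 1 in the controls and 1096 to 2827 in the mutants. The mutant group thus held Y-linked signal that the controls lacked, beside *Xist*, so the groups differed in their makeup by sex. Every difference given here therefore sets groups of unlike sex makeup against each other. Sex and genotype cannot be told apart in these means. Without the X-linked members *Nsdhl* and *Ebp*, 13 of 29 members were at least 1.5-fold lower, a count made after seeing the data. Over all 19270 genes, X-linked ones included, the share was 5.80%.

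Promoter sequence, which the choice of members did not use, was searched for motifs. RefSeq promoter windows of GRCm38.p6, from 250 bases before to 50 bases after a transcription start, were matched by symbol for 23 of 31 members, with 31 windows in all. No window was matched for *Abcg1*, *Fdft1*, *Fdps*, *Npc1*, *Scd1*, *Scd2*, *Sqle* and *Stard4*. The motifs searched on both strands were TCACNCCAC, a core of the sterol response element bound by SREBP, CCAAT, bound by NF-Y, GGGCGG, bound by Sp1, and the E-box CACGTG. SREBP is known to need NF-Y or Sp1 beside it on many of its promoters. A match is a description of letters and not of binding.

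CCAAT was in 20 of 31 member windows, 64.5%, against 37.4% of all 32851 windows and 37.6% of the 10531 windows of genes with a mean of at least 10. All 10 members with a window that were at least 1.5-fold lower had it in at least 1 window, as had 9 of the 13 other members. *Dhcr7* had it only in a window inside the gene, at chr7:143829964-143830263, and not in its windows at the annotated start. Genes with several windows had more chances of a match, and no share per gene was counted over all genes. The median log2 ratio was -0.59 over the 19 members with CCAAT and -0.16 over the others, which were only *Abca1*, *Acaca*, *Acat2* and *Scap*. GGGCGG was in 24 of 31 windows, 77.4%, against 35.7% of all windows and 64.6% of those of genes with a mean of at least 10, so the share among genes of that level was closer to that of the members. All 10 lower members and 10 of the 13 others had it, and the median log2 ratio was -0.59 with it and -0.24 without. Only *Acaca*, *Fasn* and *Pmvk* were without it, so neither of these medians without a motif rests on many genes. CACGTG was in 7 windows, of *Abca1*, *Dhcr7*, *Hsd17b7*, *Insig1*, *Sc5d* and *Scap*, 22.6% against 7.15% of all windows and 10.1% of those of genes at this level. The windows of *Scap* overlap, so the same E-box and a shared GC box are counted in each of them. The E-box was in 2 of the 10 lower members and 4 of the 13 others, and the median log2 ratio was -0.43 with it and -0.58 without. The exact sterol response element core was in 1 of 31 windows, that of *Hmgcs1*, against 1.24% of all windows and 1.08% of those of genes with a mean of at least 10. With at most 1 mismatch, a search chosen after seeing the data, 10 of 31 windows held it, 32.3% against 24.2% of all windows and 24.9% of those of genes with a mean of at least 10. They belonged to 6 of the 10 lower members and 4 of the 13 others, and the median log2 ratio was -0.63 with it and -0.31 without.

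**Figure D3:**
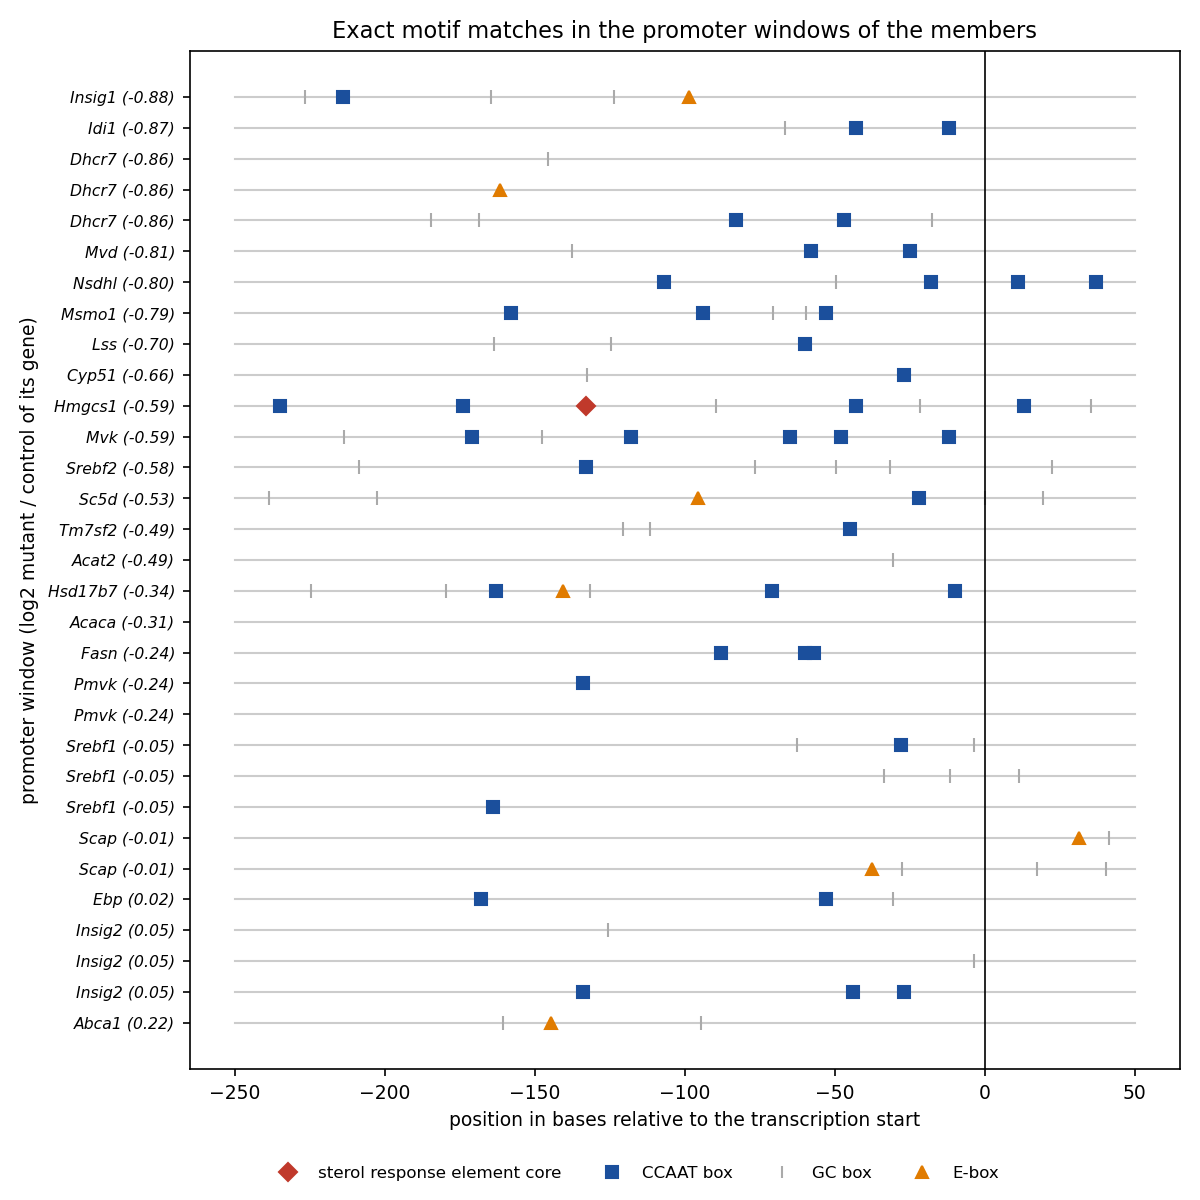
Exact motif matches in the 31 promoter windows of the members, each drawn to scale from 250 bases before to 50 bases after the transcription start, in the order of the gene's log2 ratio from lowest at the top. CCAAT and GC boxes both lie in each of the 10 genes drawn that were at least 1.5-fold lower, CCAAT boxes also in 9 and GC boxes in 10 of the 13 others, and the only match to the sterol response element core is in *Hmgcs1*.

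The 250 bases before the start are printed for the member with the exact core, for the 3 members with 1 window and the lowest log2 ratios, and for *Ebp*, the enzyme without a lower mean. They are written in the direction of transcription, in lower case, with matches to the 4 motifs on either strand in capitals, so that ATTGG is CCAAT and CCGCCC is GGGCGG on the other strand. The windows are *Hmgcs1* at chr13:119690101-119690350 on the plus strand, *Insig1* at chr5:28071162-28071411 on the plus strand, *Idi1* at chr13:8885356-8885605 on the plus strand, *Mvd* at chr8:122443423-122443672 on the minus strand and *Ebp* at chrX:8193513-8193762 on the minus strand.
Hmgcs1: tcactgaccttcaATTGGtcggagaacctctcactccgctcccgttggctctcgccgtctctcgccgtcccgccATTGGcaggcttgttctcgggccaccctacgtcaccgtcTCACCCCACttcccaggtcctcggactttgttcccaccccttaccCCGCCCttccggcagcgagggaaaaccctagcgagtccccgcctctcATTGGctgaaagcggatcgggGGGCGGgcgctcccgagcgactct
Insig1: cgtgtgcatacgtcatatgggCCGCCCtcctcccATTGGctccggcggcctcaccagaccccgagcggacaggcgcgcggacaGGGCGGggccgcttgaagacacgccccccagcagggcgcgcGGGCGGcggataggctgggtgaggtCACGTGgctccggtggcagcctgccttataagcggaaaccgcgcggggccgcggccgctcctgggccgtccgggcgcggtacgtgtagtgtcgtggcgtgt
Idi1: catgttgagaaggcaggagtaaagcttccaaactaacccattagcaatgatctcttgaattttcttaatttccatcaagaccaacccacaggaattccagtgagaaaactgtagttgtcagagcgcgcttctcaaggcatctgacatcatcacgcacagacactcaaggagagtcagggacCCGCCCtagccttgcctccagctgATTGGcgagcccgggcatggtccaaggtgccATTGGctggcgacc
Mvd: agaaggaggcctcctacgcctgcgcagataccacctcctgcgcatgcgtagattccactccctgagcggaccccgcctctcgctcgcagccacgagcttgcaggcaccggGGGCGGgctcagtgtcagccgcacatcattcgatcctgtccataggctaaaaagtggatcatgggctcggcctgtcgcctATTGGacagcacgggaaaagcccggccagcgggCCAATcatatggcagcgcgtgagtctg
Ebp: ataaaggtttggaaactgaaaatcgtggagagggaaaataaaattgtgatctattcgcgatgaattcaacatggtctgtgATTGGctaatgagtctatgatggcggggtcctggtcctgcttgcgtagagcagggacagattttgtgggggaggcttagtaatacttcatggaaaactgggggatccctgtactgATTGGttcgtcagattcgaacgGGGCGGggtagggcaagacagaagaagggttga

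Positions are counted from the transcription start, with -1 as the base before it. In *Hmgcs1* the core TCACCCCAC lay at -137 to -129, with CCAAT boxes at -176 to -172 and at -45 to -41 on either side. *Insig1* had its CCAAT box at -216 to -212 and its E-box at -101 to -96. *Idi1* had CCAAT boxes at -45 to -41 and -14 to -10, and *Mvd* at -60 to -56 and -27 to -23. *Ebp* had CCAAT boxes at -170 to -166 and -55 to -51 and a GC box too, so these letters alone did not separate it from the lower enzymes.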

How the data were processed

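Deposited tables of RNA-seq of the proximal incisor were used, from 3 control and 3 mutant mice. Reads had been trimmed and aligned to mm10 by the authors, who used Partek Flow for the comparison. The submitters' processing notes name TopHat2 2.0.8, while the counting of reads and the annotation were not given in the sources used here. The deposited values are a normalized signal, given by the authors as a least-squares mean per group, and a summary over genes for each library. The columns of the authors' own comparison, which hold p-values, FDR, ratios and fold changes, were not used, nor was a table of genes chosen by that comparison.

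The upper quartile was 44.6 in all 6 libraries. Averaging the minima of a group's 3 libraries gives its lowest group mean. The signal was therefore read as reads plus 1, times the library's minimum. Steps above the lowest mean, up to 10 reads, came out as whole reads within 2e-06 in 65.2% of the 224 means so low in the controls and in 50.0% of the 112 in the mutants, and the other steps were not explained, so the read numbers are estimates. Log2 ratios of the group means were computed without a pseudocount. For each member, the 500 genes nearest in mean level on a log scale were ranked by distance from 0, a description across genes.

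The members and lists were chosen with earlier results of these data known. All 31 members are named with their log2 ratio, and both means are given for those at least 1.5-fold apart, for the 3 highest and 3 lowest, and where a result turns on them. Of each other pathway list, genes at least 1.5-fold apart with a mean of at least 10 are named, otherwise the highest and lowest, and of each marker list the gene with the largest mean. Coordinates are from GENCODE vM21 on GRCm38. The calculation, tested on simulated data, ran in pandas 2.3.3 and numpy 2.4.6 under Python 3.11.15, and figures were drawn with matplotlib 3.10.9.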

Additional observations from a re-analysis of the deposited data

How the results depend on the processing

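No paired analysis was possible because the tables used give a mean per group and no value per gene and mouse, and for the same reason leaving out each replicate could not be done. The count of members at least 1.5-fold lower, 14, became 20 at a log2 ratio of 0.32 in size, against 12.8% of all genes, and 0 at 2-fold, against 2.14%. The count of higher members, 0, became 1 at 0.32, against 13.6%. Among the 8 members with a mean of at least 100, 2 were at least 1.5-fold lower, against 0.486% of the 2057 genes at this level, 1 had a higher mean, against 43.2%, and the median log2 ratio was -0.33, from fewer genes. With a pseudocount of 1, 13 members were at least 1.5-fold lower, and the share of all genes under that setting is not given here. Both medians stayed within 0.1 of the main value, the tolerance set for a shift, with filters at a mean of 1 or 10. The filter at 1 removed no member and that at 10 only *Tm7sf2*, so these filters could hardly move the medians. The medians also stayed within 0.1 with centring on all genes that reach a mean of 10, which shifts each ratio by only 0.0007. The mean over genes in place of the median stayed within it too.

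The log2 ratios of the 7 dental mesenchyme markers ran from -0.32 for *Dspp* to 0.22 for *Twist1*. Their median was the value of *Pdgfra* and was -0.18 without *Dspp*, so a shift by it depends on the markers taken. Centring on the 7 dental mesenchyme markers, chosen after seeing the data, moved every log2 ratio by 0.20. It left 7 members at least 1.5-fold lower, against 3.63% of all genes, gave 1 higher, *Abcg1* at a log2 ratio of 0.64, against 11.7%, and 8 with a higher mean, against 80.6%, and set the medians at -0.33 for the members and -0.45 for the enzymes. *Srebf1*, *Scap*, *Npc1* and *Scd2* then changed sign; a shift of this size could not turn a member that was at least 1.5-fold lower. The count of promoter windows with the sterol response element core went from 1 to 10 with at most 1 mismatch, a search that takes in more letters. For 31 of 31 members, a pseudocount of 1 and centring on all genes with a mean of at least 10 each moved the log2 ratio by less than 0.1. Depth limits the members' ratios little, while the spread between mice is not covered by any value given here.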
